A study of Mus musculus with 14 samples.

Results

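C2C12 cells, an immortalized line of mouse myoblasts (muscle precursor cells that can fuse into multinucleate myotubes), were compared between day 7 and day 2 of culture in DM2. DM2 is DMEM with 10% fetal calf serum (FCS) and a cocktail used to drive fat cell formation, which holds insulin at 1 µg/ml, the phosphodiesterase inhibitor 3-isobutyl-1-methylxanthine (IBMX) at 0.5 mM, the glucocorticoid dexamethasone at 0.5 µM and the PPAR-gamma agonist rosiglitazone at 2 µM. The comparison holds 4 of the 14 libraries of the study, 2 at each day, chosen by the medium and day in their labels. The other groups, also of 2 libraries each, were growing cells in 20% FCS at day 0, cells in 2% horse serum without the cocktail (DM1) at day 2 and day 7, and cells in 2% horse serum with the same cocktail (DM3) at day 2 and day 7. All differentiation media were renewed every other day, and the medium was the same at both days of DM2, so the comparison is of the days. The labels give neither the time since the last renewal nor the cell density at harvest. These cannot be told apart from time in culture. The labels number the libraries of a group but do not say that they came from separate cultures, so the spread behind each p-value is that of the libraries and could be a technical one. All cells are of 1 line, and the RNA is of the whole culture, so a change in the share of cells of one kind and a change in RNA per cell cannot be told apart.

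Poly(A) RNA was sequenced with a stranded kit and 50-base single-end reads. The 4 DM2 libraries held 23701870 and 24700182 counts at day 2 and 29784885 and 29402114 counts at day 7, within the 21907617 to 29784885 of all 14. The myoblast markers Myod1, Myf5, Des, Cdh15, Itga7, Ncam1 and Vim were all detected in each of the 4. Processed pseudogenes took 3.69% and 3.04% of the counts at day 2 and 4.55% and 4.83% at day 7, and the 10 most abundant genes took 7.82% and 7.31%, then 8.65% and 9.15%. Of the other groups, the second DM3 day 2 library stood apart, with 0.837% of counts in processed pseudogenes and a Spearman correlation of 0.9616 with its partner, against 0.9931 and 0.9954 for the DM2 pairs. Values are CPM, the counts of a gene per 1000000 counts of the library, scaled by edgeR's TMM factors, and a gene is said to have risen or fallen where its adjusted p was under 0.05 in edgeR's quasi-likelihood test.

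Txnip binds and inhibits thioredoxin and restrains glucose uptake, and its gene is switched on by sugar phosphates through the factors Mlx, Mlxip (MondoA) and Mlxipl (ChREBP). Hspa5 (BiP) is the main chaperone of the endoplasmic reticulum (ER), where secreted proteins fold. When unfolded proteins build up there, the sensors Atf6, Ern1 (IRE1) and Eif2ak3 (PERK) raise chaperones and slow translation, and the last of these acts through Atf4, which also answers amino acid shortage and turns on amino acid transporters, amino acid synthesis and tRNA synthetases. Hypoxia-inducible factors raise glucose transport and glycolysis when oxygen falls. Nos2 makes nitric oxide from arginine and is best known from activated macrophages.

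Of 15973 genes tested, 54.8% passed the test between day 7 and day 2 in DM2, 25.4% as higher and 29.4% as lower at day 7, and the median log2 fold change of all genes was -0.01. Changes of at least 2-fold that passed the test were found for 9.03% of genes as higher and 14.2% as lower. In DM3 47.9% and in DM1 34.3% of genes passed between these days. Both day 7 libraries of DM2 lay above both day 2 libraries for 38.6% of genes and below them for 40.1%. With so much of the table called, counts of list members below are to be read against these shares. The lists were chosen with earlier results of these data known. Larger shares in them, also in the comparisons with the other media, may thus have been favoured in advance. The split depended on the scaling: with library totals in place of TMM, the median of all genes moved by -0.259, and 2665 genes were higher and 6554 lower, against 4063 and 4691.

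**Figure D1:**
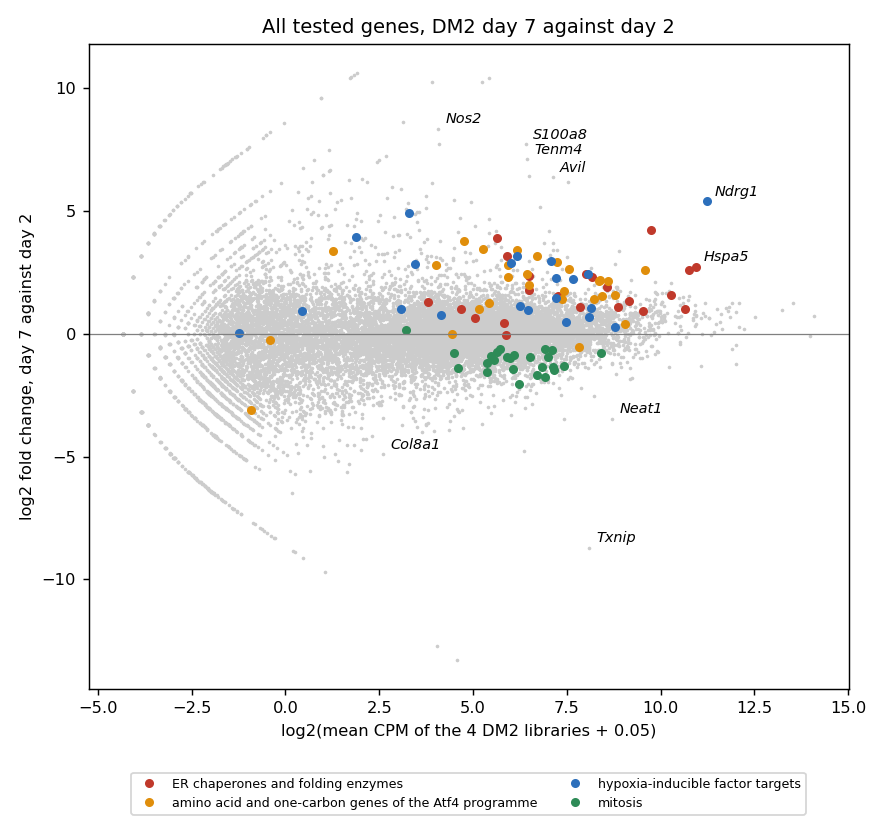
Log2 fold change from day 2 to day 7 in DM2 (vertical axis) against mean level (log2 CPM, horizontal axis) for each of the 15973 tested genes in grey, with members of 4 lists in colour. Txnip lies far below the other genes of like level, while the ER chaperone, Atf4 and hypoxia lists lie mostly above 0 and the mitosis list below it.

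Txnip (ENSMUSG00000038393, chr3:96557957-96561883, plus strand, GRCm38) was among the abundant transcripts at day 2 and nearly gone at day 7. It stood at 517 and 578 CPM at day 2 and 1.20 and 1.40 CPM at day 7. The 2 days did not overlap, and the fall was 419-fold (log2 fold change -8.71 ± 0.21 (SE), adjusted p = 3.62e-10). In the other media Txnip was not lower at day 7: its means (± SD, n = 2) at day 2 and day 7 were 422 ± 79.4 and 465 ± 0.743 CPM in DM3 and 194 ± 20.2 and 749.5 ± 96.8 CPM in DM1. The change in DM2 differed from that in DM3 by -8.85 ± 0.24 (SE) on the log2 scale (adjusted p = 2.53e-09) and from that in DM1 by -10.66 ± 0.25 (SE) (adjusted p = 4.13e-10).

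The promoter of Txnip is shown because the glucose response of the gene is known to run through a pair of E boxes close to its start. In the RefSeq promoter (GRCm38.p6, 250 bases before to 50 after the start) a script searched both strands for a pair of CACGNG with 5 bases between, and the match is in capitals.
Txnip (chr3:96557832-96557928, + strand): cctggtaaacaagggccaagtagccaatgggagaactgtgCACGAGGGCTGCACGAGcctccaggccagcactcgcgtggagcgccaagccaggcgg
Such a pair was present in 0.0487% of all 32851 RefSeq promoters of that length and in 0.0555% of their genes. Of the 16 matched genes of the glucose list only Txnip held it. A match describes the letters and does not show binding.

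The other genes of glucose sensing and uptake went in different directions. Of 17 tested, 5 rose and 7 fell, with a median log2 fold change of -0.25, and with library totals as scaling 3 higher and 10 lower, with a median of -0.51. Slc2a1, the basal glucose transporter, rose from 86.9 and 81.6 to 814 and 919.6 CPM, a 10.3-fold change (log2 fold change 3.36 ± 0.10 (SE), adjusted p = 7.97e-10). Slc2a4, the insulin-regulated transporter of muscle and fat, was low and fell from 1.60 and 1.79 to 0.151 and 0.389 CPM, with a log2 fold change of -2.64, or -3.45 without the second day 7 library. Arrdc2, an arrestin of the Txnip family, fell from 23.5 and 19.5 to 6.70 and 7.0 CPM (log2 fold change -1.65 ± 0.12 (SE)). Arrdc4, the closest relative of Txnip in its regulation, was too low to be tested, with 9 and 3 counts at day 2 and 0 and 2 at day 7. Of the sensing factors, Mlx rose (log2 fold change 1.09 ± 0.11 (SE)), Mlxip did not pass the test (0.07, adjusted p = 0.663), and Mlxipl had 1 count in each day 2 library and none at day 7. Thioredoxin itself, Txn1, had a log2 fold change of -0.32 ± 0.14 (SE) that did not pass (adjusted p = 0.0773). It passed as lower with library totals (adjusted p = 0.00455) or upper quartile scaling (0.0347), without the second day 2 library (0.00559), and with crossed replicate numbers (0.0166).

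Most genes of glycolysis rose. Of 20 tested, 14 rose, 4 fell and 2 did not pass, where in DM3 8 rose and 6 fell and in DM1 8 rose and 3 fell. The median log2 fold change in DM2 was 1.21. Hexokinase 2 (Hk2), which traps glucose in the cell, rose from 104 and 113 to 731 and 807 CPM, and the liver-type phosphofructokinase Pfkl from 199 and 189.6 to 684 and 773 CPM. Eno2 rose by 2.62, lactate dehydrogenase Ldha by 1.61 and the lactate exporter Slc16a3 by 1.89 on the log2 scale. The genes that fell included the muscle forms of 2 of these enzymes. Pfkm went from 126 and 110.2 to 55.4 and 57.7 CPM and Eno3 from 139 and 117 to 44.5 and 47.8 CPM, while both had positive log2 fold changes in DM3 (1.40 and 0.97). Gapdh and Eno1 were higher in both day 7 libraries but did not pass, with adjusted p = 0.286 and 0.0573. Both have many processed copies, among which 50-base reads can be split, but whether this bore on the calls was not tested. When the 4 DM2 libraries were fitted alone both passed, at adjusted p = 3.14e-05 for Gapdh and 3.19e-05 for Eno1. Without the 3 libraries of other groups with a low share of processed pseudogenes both passed, at adjusted p = 5.9e-06 for Gapdh and 2.76e-06 for Eno1. Pdk4, which holds back pyruvate entry into mitochondria, fell from 113 and 122 to 12.8 and 11.2 CPM, and Pdk1, which has the same activity and is a target of hypoxia-inducible factors, rose from 72.5 and 84.2 to 220.2 and 212 CPM.

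**Figure D2:**
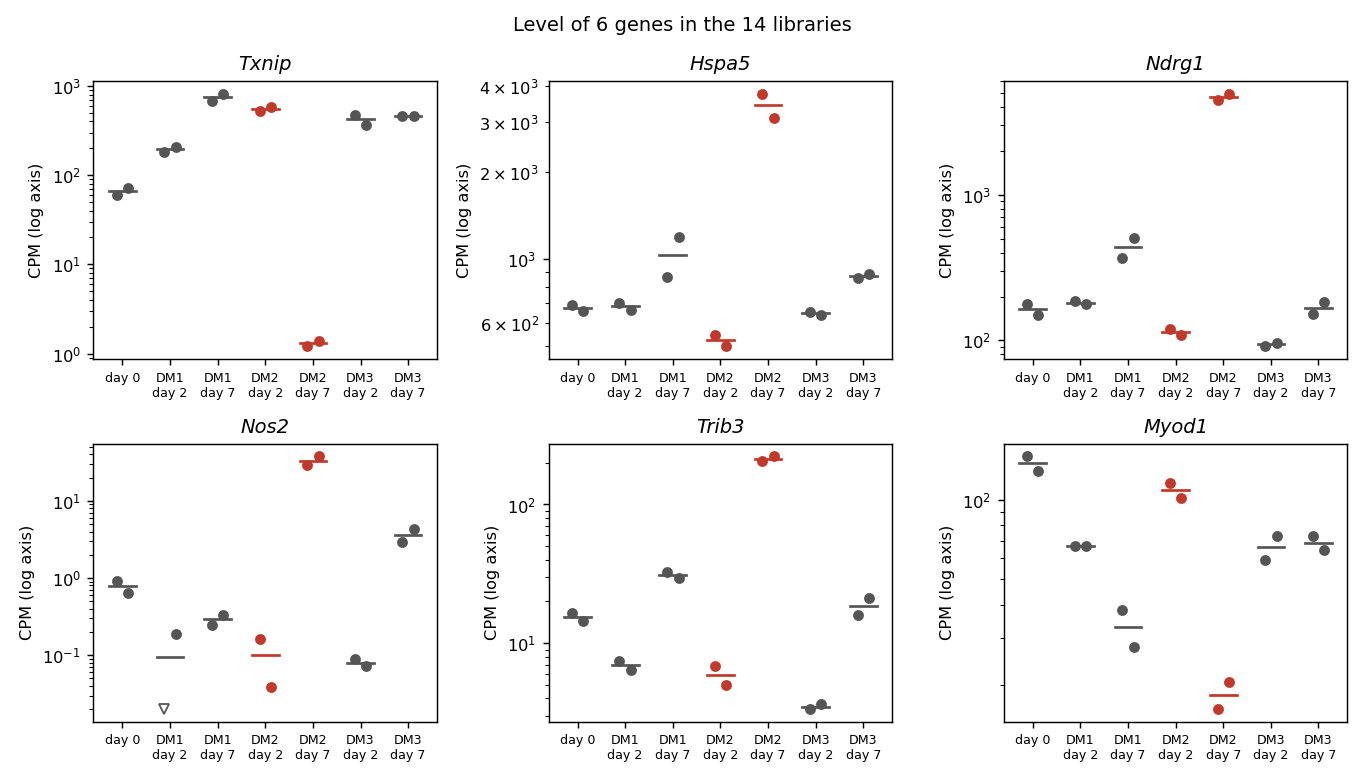
CPM on a log axis in each of the 14 libraries (points) with group means (bars) for Txnip, Hspa5, Ndrg1, Nos2, Trib3 and Myod1, DM2 in red; an open triangle marks 1 library in which Nos2 had no count. In DM2 Txnip and Myod1 are lower at day 7 than at day 2 and the other 4 genes are higher, without overlap.

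The chaperones and folding enzymes of the ER rose almost as a body. Of 22 tested, 21 rose and none fell, against 25.4% of all genes rising, and the median log2 fold change was 1.55. Hspa5 (ENSMUSG00000026864, chr2:34771970-34777547, plus strand) stood at 546 and 497 CPM at day 2 and 3752 and 3096 CPM at day 7, which did not overlap (6.57-fold, log2 fold change 2.72 ± 0.14 (SE), adjusted p = 2.62e-08). The lectin chaperone Calr followed it closely, from 526 and 469 to 3205 and 2778 CPM. The largest change in the list was that of Ero1l, the oxidase that drives disulfide formation and also a target of hypoxia-inducible factors, at 86 and 89.1 CPM at day 2 and 1667 and 1586 CPM at day 7 (log2 fold change 4.22 ± 0.14 (SE), adjusted p = 1.59e-09). Sdf2l1, an Hspa5 partner, rose from 7.77 and 4.89 to 97.5 and 87.9 CPM, and the co-chaperone Dnajb9 from 12.3 and 11.5 to 116 and 98 CPM. The smaller changes were those of Hsp90b1 (log2 fold change 1.0), Canx (0.93), Fkbp2 (0.65) and Hspa13 (0.45, which did not pass with library totals as scaling), and Cnpy2 did not pass (-0.05, adjusted p = 0.777). The same list had a median log2 fold change of 0.18 in DM3 and 0.33 in DM1. In the test of the difference itself the log2 fold change was higher in DM2 than in DM3 for 20 of the 22, against 19.8% of all genes, and higher than in DM1 for 20, against 23%.

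The ER stress element, CCAAT followed 9 bases on by CCACG, is the known site through which Atf6 and NF-Y act on chaperone promoters. It was found on either strand in 8 of the 19 list members with a RefSeq promoter (42.1%) and in 0.137% of all genes with such a promoter. The windows around the matches are shown for 6 of these genes and for Syvn1, with the element in capitals; where it lies on the reverse strand it reads CGTGG, 9 bases, ATTGG.
Hspa5 (chr2:34772000-34772068, + strand): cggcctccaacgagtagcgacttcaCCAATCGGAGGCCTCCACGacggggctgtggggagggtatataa
Hsp90b1 (chr10:86705518-86705671, - strand): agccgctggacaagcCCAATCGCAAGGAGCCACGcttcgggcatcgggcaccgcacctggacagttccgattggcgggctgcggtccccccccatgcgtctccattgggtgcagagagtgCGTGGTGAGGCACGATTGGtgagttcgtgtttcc
Calr (chr8:84847050-84847118, - strand): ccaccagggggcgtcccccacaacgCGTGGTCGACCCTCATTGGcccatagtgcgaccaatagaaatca
Pdia6 (chr12:17266466-17266534, + strand): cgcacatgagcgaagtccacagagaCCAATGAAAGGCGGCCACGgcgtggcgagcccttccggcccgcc
Dnajc3 (chr14:118937802-118937870, + strand): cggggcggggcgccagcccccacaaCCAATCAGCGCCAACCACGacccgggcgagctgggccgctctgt
Creld2 (chr15:88819495-88819563, + strand): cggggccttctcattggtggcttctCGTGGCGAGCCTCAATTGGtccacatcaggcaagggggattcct
Syvn1 (chr19:6046507-6046575, + strand): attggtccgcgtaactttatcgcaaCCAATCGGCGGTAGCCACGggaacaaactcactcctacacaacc
Hsp90b1 holds 2 copies on opposite strands. The members with a match did not all change by much: Creld2 rose from 33.8 and 25.4 to 159 and 139 CPM and Dnajc3 from 76.5 and 80.5 to 256 and 199.7 CPM, while Pdia6 rose by 1.09 and Canx by 0.93 on the log2 scale. Pdia4 and Sdf2l1, which have a RefSeq promoter without this pattern, rose by 2.31 and 3.87. Syvn1 belongs to the list of ER-associated degradation below, where 2 of 13 matched members (15.4%) held the element. The other was Derl3, which had no count in the 4 DM2 libraries. A further pattern searched, the core of the unfolded protein response (UPR) element, was in 0 of the 19 chaperone list members. It was in 1 of the 13 degradation members, Ube2j1, which did not pass, and in 0.714% of all genes. Hk2 and Vegfa, of other lists, also held it.

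Genes of ER-associated degradation, which moves misfolded proteins back to the proteasome, rose less evenly. Of 14 tested, 10 rose and none fell, where in DM3 6 rose and 2 fell and in DM1 7 rose and 1 fell. The median log2 fold change in DM2 was 0.72. Herpud1, a small membrane protein of this machinery, led with 24.6 and 27.3 CPM at day 2 and 257 and 225 CPM at day 7 (log2 fold change 3.22 ± 0.10 (SE), adjusted p = 7.97e-10). The ubiquitin ligase Syvn1 rose by 1.16 and Derl2, of the membrane channel, by 0.53 on the log2 scale. Edem2, Edem3, Nploc4 and Ube2j1 did not pass, with log2 fold changes from -0.14 to 0.19. With library totals Edem2 passed as lower (-0.40), and with DESeq2 Nploc4 and Ube2j1 passed as higher (0.20 and 0.23).

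Of the sensors and factors of the stress response, 7 of 17 rose and 4 fell in DM3, and 8 rose and none fell in DM1. In DM2 13 of the 17 rose and 1 fell. The genes that rose most are targets of Atf4: Trib3, an Akt-binding pseudokinase, was at 6.85 and 5.0 CPM at day 2 and 204 and 222 CPM at day 7 (36-fold, log2 fold change 5.17 ± 0.18 (SE), adjusted p = 2.13e-09). Ddit3 (CHOP), a factor tied to cell death under stress, rose from 17.8 and 16.4 to 207 and 233 CPM, and Ppp1r15a (GADD34), the phosphatase subunit that restarts translation, from 22 and 18.3 to 254 and 264 CPM. In none of these 3 genes did a day 7 library come near a day 2 library. Atf4 itself rose 4.57-fold to 923 and 1027 CPM and Atf3 by 3.69 on the log2 scale. The sensors changed less, with log2 fold changes of 0.99 ± 0.12 (SE) for Atf6, 0.76 ± 0.11 (SE) for Ern1 and 0.53 ± 0.09 (SE) for Eif2ak3. Xbp1, whose spliced form is the output of Ern1, rose by 0.99, and the counts per gene do not separate its spliced form. Eif2ak4 (GCN2), the sensor of uncharged tRNA, was the member that fell (-0.79 ± 0.12 (SE), adjusted p = 0.000162). Nupr1 rose by 1.98 in DM2 and had like log2 fold changes of 2.04 in DM3 and 2.03 in DM1.

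The amino acid and one-carbon genes of the Atf4 programme rose in most cases. Of 28 tested, 24 rose and 2 fell, where in DM3 17 rose and 7 fell and in DM1 20 rose and 1 fell. The median log2 fold change was 2.13, against 0.55 in DM3 and 0.86 in DM1. The difference passed the test as a higher log2 fold change in DM2 for 22 of 28 against DM3 and for 22 of 28 against DM1. For all genes these shares were 19.8% and 23%. Transporters rose: Slc7a1, which carries arginine and lysine, went from 30.7 and 39.4 to 267 and 269 CPM, and Slc7a11, the cystine carrier, from 12.6 and 17.9 to 118 and 94.5 CPM. Slc7a5 and its partner Slc3a2, which together carry leucine, rose by 2.14 and 2.13 on the log2 scale. Of the synthesis genes, Cth, which makes cysteine, rose from 13.5 and 11.1 to 134 and 128 CPM, and asparagine synthetase Asns from 180.3 and 151 to 422 and 446 CPM. The serine pathway of Phgdh, Psat1 and Psph rose by 1.54, 1.57 and 2.29, and the mitochondrial folate enzymes Shmt2, Mthfd2 and Aldh1l2 by 2.19, 2.65 and 2.61. Chac1, which breaks down glutathione, was at 7.37 and 5.42 CPM at day 2 and 65 and 74.5 CPM at day 7, and Sesn2, which inhibits mTORC1, at 21.6 and 20.2 CPM at day 2 and 176 and 197 CPM at day 7. Neither gene overlapped between the days. Ddit4 (REDD1), another mTORC1 inhibitor on the list, fell from 275 and 263 to 186 and 180.1 CPM.

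The C/EBP-ATF composite element, TTGCATCA or its reverse complement TGATGCAA, is the known site of Atf4 with a C/EBP partner. It was found in 6 of the 23 matched members of this list (26.1%), in 4 of the 13 matched tRNA synthetases (30.8%) and in 1.03% of all genes. Windows are shown for 4 genes with large changes, with the element in capitals.
Slc7a11 (chr3:50443628-50443704, - strand): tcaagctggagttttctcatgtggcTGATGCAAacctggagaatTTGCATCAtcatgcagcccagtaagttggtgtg
Chac1 (chr2:119351024-119351081, + strand): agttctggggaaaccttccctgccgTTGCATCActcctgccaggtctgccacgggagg
Atf3 (chr1:191183411-191183468, - strand): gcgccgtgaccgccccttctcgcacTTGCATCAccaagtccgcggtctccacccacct
Vldlr (chr19:27216795-27216852, + strand): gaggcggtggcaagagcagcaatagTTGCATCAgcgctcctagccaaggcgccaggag
Slc7a11 holds the element in both orientations within its window. Vldlr, a lipoprotein receptor, rose from 3.57 and 3.74 to 55.9 and 44.4 CPM. A match was also present in Pycr1, of proline synthesis, whose log2 fold change of -0.02 ± 0.13 (SE) did not pass.

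Cytosolic aminoacyl-tRNA synthetases, which charge tRNAs with amino acids, rose in 17 of 20 cases and fell in 1, with a median log2 fold change of 1.17. Wars led with 77.4 and 72.1 CPM at day 2 and 332 and 363 CPM at day 7 (log2 fold change 2.22 ± 0.11 (SE), adjusted p = 2.1e-08), followed by Aars from 203 and 191 to 695 and 747 CPM. In DM3 15 of the 20 rose and none fell, with a median of 0.48. In DM1 11 rose and none fell, with a median of 0.32. Of all genes 22.6% rose in DM3 and 16.8% in DM1. In the test of the difference the log2 fold change was higher in DM2 than in DM3 for 14, against 19.8% of all genes. It was higher than in DM1 for 16 and lower for 1, against 23% and 26%. Within DM2 the 20 were not uniform. Kars and Qars did not pass, at 0.12 and 0.08, though Qars passed as lower with library totals (-0.18), and Dars fell by 0.32 on the log2 scale (adjusted p = 0.0114), a call that was lost without the second day 7 library (adjusted p = 0.119) or the first day 2 library (adjusted p = 0.0556).

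**Figure D3:**
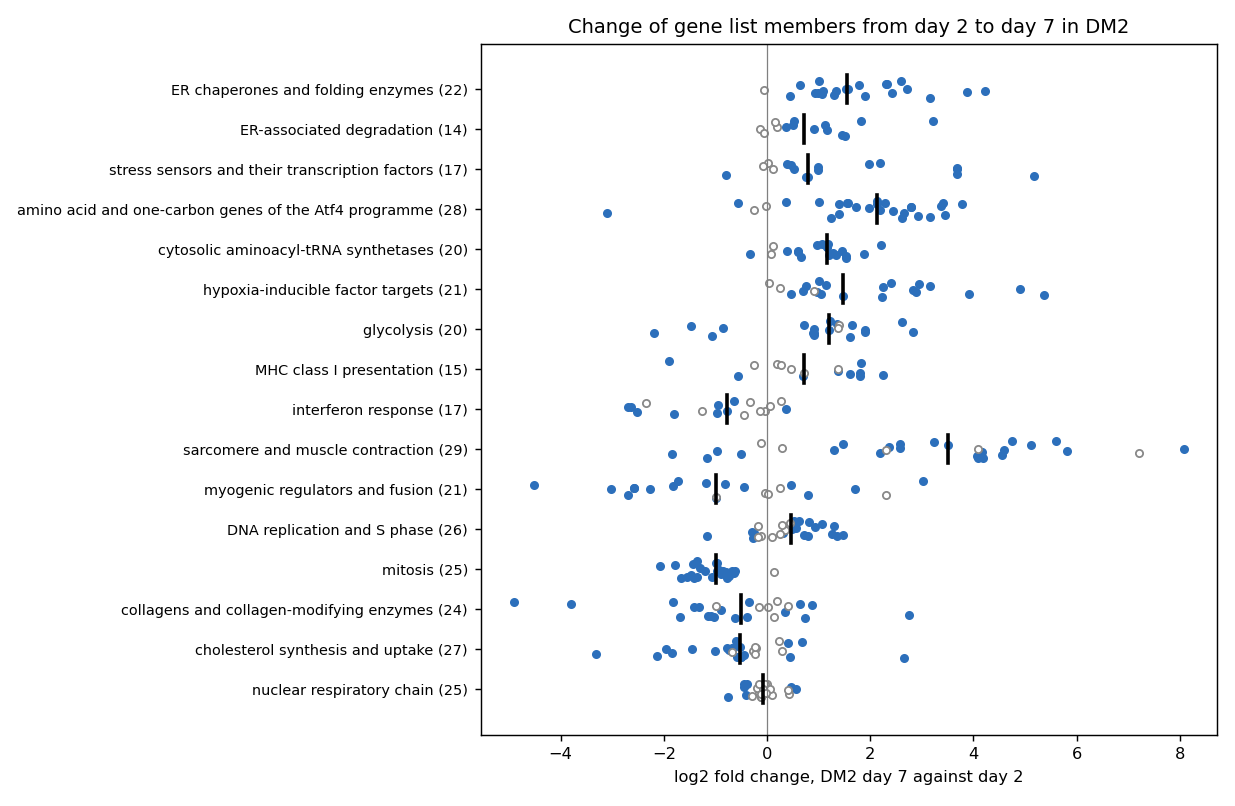
Log2 fold change from day 2 to day 7 in DM2 for each tested member of 16 gene lists (number tested in brackets); filled points passed the test, open points did not, and black bars are medians. Most members and the medians of the ER, Atf4, synthetase and hypoxia lists lie to the right of 0, those of mitosis to the left, and the sarcomere list spans both sides.

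Targets of hypoxia-inducible factors rose in 18 of 21 cases with none falling, and their median log2 fold change was 1.46. Ndrg1, a stress-induced gene, was 1 of the 15 genes with the largest gain of CPM: 119 and 108 CPM at day 2 and 4500.2 and 4945 CPM at day 7, 41.6-fold with no overlap (log2 fold change 5.38 ± 0.18 (SE), adjusted p = 1.39e-09). Its mean changed in DM3 only from 93.7 to 168 CPM and in DM1 from 182 to 436 CPM. Egln3 and Egln1, the oxygen-sensing hydroxylases that mark hypoxia-inducible factors for decay and are also their targets, rose from 30.9 and 31.5 to 222 and 257 CPM and from 52.1 and 50.3 to 236 and 253 CPM. Bnip3, a mitophagy receptor, rose by 2.41, the mitochondrial Higd1a by 3.16 and the collagen hydroxylase P4ha2 by 2.23 on the log2 scale. Vegfa, the endothelial growth factor, rose less, from 206 and 209 to 343 and 329 CPM. The carbonic anhydrase Car9 rose from 15.9 and 14.9 to 112 and 117 CPM, and its log2 fold change was 5.45 in DM1. Of the factor genes, Hif1a had a log2 fold change of 0.25 ± 0.10 (SE) (adjusted p = 0.0519), which passed with DESeq2 (0.29, adjusted p = 0.00793) and was -0.01 with library totals as scaling, and Epas1 was under 1 CPM. In DM3 12 of the 21 targets rose and 2 fell, with a median of 0.58, and in DM1 12 rose and none fell, with a median of 0.74. In the test of the difference the log2 fold change was higher in DM2 than in DM3 for 15 and lower for 1. It was higher than in DM1 for 12 and lower for 3. Oxygen was not measured here.

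Nos2 (ENSMUSG00000020826, chr11:78920787-78960254, plus strand) had 5 counts in all at day 2 and 1736 at day 7, or 0.16 and 0.0382 CPM at day 2 and 28.9 and 37.7 CPM at day 7 (log2 fold change 8.34 ± 0.62 (SE), adjusted p = 1.95e-06). It was also higher at day 7 than at day 2 in DM3, with means of 0.0798 and 3.66 CPM, and the difference between DM2 and DM3 in the change did not pass the test (2.89 ± 1.22 (SE), adjusted p = 0.0874). In DM1 its means were 0.0938 and 0.292 CPM. Of the 15 tested genes of arginine, nitric oxide and biopterin, 7 rose and 3 fell. The genes that make the Nos2 cofactor tetrahydrobiopterin rose in part: Gch1, the first step, went from 47.1 and 37.4 to 95.5 and 109 CPM and Spr, the last, from 29.4 and 21.2 to 48.1 and 60.3 CPM, while Pts between them did not pass (0.20). Ass1, which regenerates arginine, rose by 0.92, and Ddah2, which clears a Nos inhibitor, fell from 123 and 91.9 to 27.1 and 34.9 CPM. Few counts at day 2 set the size of the Nos2 rise. Without the second day 2 library it was 202-fold by the fit, and without the first, which leaves 1 count at day 2, the ratio was 870 with a 95% counting interval of 156 to 34390.

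Markers of leukocytes were near absent beside this. Of 12 fixed markers, 10 were under 1 CPM in every DM2 library, and Adgre1, Mpo and Tyrobp had no count in any of the 4, with 1 count of Ptprc in all. The summed level of the 12 was 8.33 and 8.74 CPM at day 2 and 13 and 14.2 CPM at day 7, most of it Cd14 and Cd68, which other cells also make. Of 6 endothelial markers, 3 rose, led by Vwf and Kdr, and the sum went from 1.20 and 2.44 to 7.30 and 7.08 CPM, with Cldn5 at 0. Of 8 pancreatic acinar markers 5 were at 0 in the 4 libraries, and the sum of 3.69 and 3.89, then 12 and 12.6 CPM was nearly all Cela1. The 7 myoblast markers summed to 7764 and 7009 CPM at day 2 and 4390 and 4934 CPM at day 7, and 5 fell and 1 rose. The 1 that rose was Cdh15, with a log2 fold change of 0.47, or 0.40 without the second day 7 library. Its call was lost with library totals as scaling (0.21, adjusted p = 0.222). The 6 fibroblast markers summed to 268.5 and 238 CPM at day 2 and 122 and 126 CPM at day 7. Of the 5 of these tested, 3 fell and 1, Dcn, rose. The 6 epithelial markers summed to 13.1 and 9.81, then 13.6 and 17.3 CPM, and neither of the 2 tested passed. The 6 neuronal markers summed to 108 and 94.1, then 62.2 and 69.6 CPM, and of 4 tested 1 rose and 2 fell. The part of other cells in these changes was not tested.

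Inflammatory genes were split. Of 27 tested targets and members of the NF-kB pathway, 12 rose and 7 fell, and the median log2 fold change of 0.14 became -0.12 with library totals as scaling, with 10 higher and 10 lower. The alarmin Il33 rose from 22.2 and 26.6 to 241 and 275 CPM and the prostaglandin synthase Ptgs2 from 14.2 and 17.3 to 113 and 95.1 CPM. The inhibitor Nfkbia, itself a target, fell from 54.9 and 47 to 25.7 and 29.6 CPM and the adhesion molecule Vcam1 from 53.3 and 63.4 to 20.1 and 16.6 CPM. Of 17 tested interferon response genes, 8 fell and 1 rose (0 higher and 10 lower with library totals). The RNA sensor Ddx58 (RIG-I) went from 16.2 and 18.3 to 2.94 and 2.61 CPM and the factor Stat2 from 51.7 and 54.6 to 25.9 and 28.3 CPM. Genes of MHC class I went the other way in part, with 7 of 15 higher and 2 lower, falling to 4 higher with library totals. Nlrc5, the activator of class I genes, rose from 5.49 and 5.92 to 27.2 and 27.4 CPM, B2m, the light chain, from 242 and 214 to 655 and 744 CPM, and Tapbp, which loads peptides, fell from 74.3 and 64.8 to 18.4 and 18.9 CPM. Class I heavy chains are near copies of each other, so counts of H2-K1 and H2-D1 are uncertain. H2-K1 was among the 7, with a log2 fold change of 1.80. Its call was lost with library totals (adjusted p = 0.0624), with no filter on low counts (0.0625) and with a replicate block (0.0546). H2-D1 did not pass, but did as higher when the 4 DM2 libraries were fitted alone (1.37, adjusted p = 1.64e-05).

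The largest rises among protein-coding genes of at least 10 CPM were of genes barely present at day 2. S100a8, a calcium-binding protein of neutrophils, was at 0.801 and 0.802 CPM at day 2 and 189 and 149 CPM at day 7 (log2 fold change 7.71 ± 0.35 (SE), adjusted p = 7.61e-08). Tenm4, a teneurin adhesion protein, was at 1.04 and 1.45 CPM at day 2 and 174 and 169 CPM at day 7, and Avil, an actin-binding advillin, at 4.09 and 2.56 CPM at day 2 and 269.9 and 279 CPM at day 7. Only genes whose days did not overlap could enter this ranking. Car6, a secreted carbonic anhydrase, rose from 2.36 and 1.76 to 172 and 182 CPM and Igfbp3, a carrier of insulin-like growth factors, from 0.441 and 0.382 to 30.6 and 28.2 CPM. Scara5, a ferritin receptor, rose by 7.72 in DM2 and had a log2 fold change of 7.47 in DM3.

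The largest falls after Txnip were of smaller size and from moderate levels. Serinc2 went from 38.6 and 37.8 to 2.71 and 2.37 CPM, Dbp, an output factor of the circadian clock, from 75.5 and 63.6 to 4.74 and 6.15 CPM, and S1pr3, a sphingosine phosphate receptor, from 23.9 and 27.5 to 1.99 and 2.18 CPM. Sorbs2, a cytoskeletal adaptor, was the most abundant of the 15 after Txnip, at 291 and 335 CPM at day 2 and 28.6 and 28.6 CPM at day 7 (log2 fold change -3.45 ± 0.10 (SE), adjusted p = 7.97e-10). By loss of CPM the nuclear RNAs Neat1 and Malat1 and the imprinted RNA H19 stood out: Neat1 fell from 779 and 748 to 73.3 and 65.2 CPM, Malat1 from 1818 and 1614 to 665 and 678 CPM and H19 from 5974 and 5617 to 2300.5 and 2672 CPM. H19 and Malat1 had positive log2 fold changes in DM3 (2.21 and 0.96) and DM1 (0.87 and 1.85). Among the largest gains of CPM besides Ndrg1, Hspa5 and Calr were the iron store Fth1 (log2 fold change 1.24), Igfbp5 (1.08), fibronectin Fn1 (1.03) and the elongation factor Eef2 (0.97).

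The muscle programme was split between its regulators and its contractile genes. Of 21 tested myogenic regulators and fusion genes, 4 rose and 12 fell, with a median log2 fold change of -0.98. Myod1, which commits cells to muscle, was at 116 and 102 CPM at day 2 and 16.1 and 20.4 CPM at day 7 (log2 fold change -2.57 ± 0.17 (SE), adjusted p = 3.6e-07), with no overlap. Myf5, of the same family, fell from 301 and 277 to 131 and 123 CPM, and Six4, a factor that acts upstream, by 2.58 on the log2 scale. The Id proteins, which block myogenic factors, fell as well: Id3 went from 168 and 131 to 17.8 and 18.9 CPM and Id2 from 102 and 91.3 to 14.9 and 14.7 CPM. Myog, which drives late differentiation, was at 29.2 and 24.7 CPM at day 2 and 32 and 32.2 CPM at day 7 and did not pass (adjusted p = 0.14), whereas its log2 fold change in DM3 was 2.27. The fusion protein gene Tmem8c (myomaker) rose from 4.45 and 3.47 to 31.1 and 32.8 CPM. In the test of the difference, 17 of the 21 changed by less, or fell by more, in DM2 than in DM3, where 20% of all genes did.

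Of 29 tested sarcomere and contraction genes, 20 rose and 4 fell, with a median log2 fold change of 3.51. Skeletal actin Acta1 was at 15.3 and 11.6 CPM at day 2 and 243 and 247 CPM at day 7 and embryonic myosin Myh3 at 5.25 and 4.16 CPM at day 2 and 86.6 and 74.6 CPM at day 7 (log2 fold change 4.10 ± 0.20 (SE), adjusted p = 3.51e-08). Troponin C Tnnc1 rose from 6.53 and 3.89 to 92.2 and 93.7 CPM and the light chain Mylpf from 16.7 and 11.8 to 134 and 135 CPM. The adult fast myosins were low at both days. Myh1 rose from 1 count in all at day 2 to 1.43 and 1.32 CPM at day 7, a ratio of 70.5 with a 95% counting interval of 12.3 to 2821. Its log2 fold change of 5.82 was 4.94 without the second day 2 library, and without the first, which leaves no count at day 2, it was at least 12-fold higher. Myh4 rose, with no count at day 2 and 68 at day 7, at least 11.1-fold higher when day 2 is set to 3 counts per library. The genes that fell were already expressed at day 2: desmin (Des) went from 984 and 860.4 to 427 and 511 CPM, titin (Ttn) from 146 and 186 to 82.8 and 64.5 CPM and Actn3 from 179 and 168 to 44 and 52.4 CPM. The list's median log2 fold change was 4.83 in DM3. In the test of the difference the log2 fold change was lower in DM2 than in DM3 for 17 of 29 and higher for none. Of all genes 20% were lower and 19.8% higher. Against DM1 the log2 fold change was higher for 14 and lower for 6, where 23% and 26% of all genes were. Of smooth muscle and SRF targets, 5 of 16 rose and 5 fell (4 higher and 8 lower with library totals). These shares were near the 25.4% and 29.4% of all genes. Acta2 rose from 222 and 170.4 to 645 and 663 CPM, and Mylk, the myosin light chain kinase, fell from 23.8 and 32.1 to 3.88 and 2.96 CPM.

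DNA replication and mitosis genes moved apart. Of 25 tested mitosis genes, 24 fell and none rose, with a median log2 fold change of -1.0. Cyclin B2 (Ccnb2) was at 128 and 113 CPM at day 2 and 28 and 29.5 CPM at day 7 (log2 fold change -2.07 ± 0.09 (SE), adjusted p = 9.44e-09), and the proliferation marker Mki67 fell from 199 and 288 to 106 and 91.6 CPM. Of 26 replication genes, 14 rose and 4 fell, with a median of 0.46, and with library totals as scaling 9 rose and 7 fell. Cdc6, which loads the replicative helicase, was at 6.17 and 4.50 CPM at day 2 and 15.3 and 14.4 CPM at day 7 (log2 fold change 1.47 ± 0.15 (SE), adjusted p = 5.65e-06), and the helicase subunits Mcm2 and Mcm3 rose from 39.4 and 39.6 to 99.4 and 104 CPM and from 25.6 and 24.8 to 61.8 and 62.6 CPM. Cyclin E1 (Ccne1) fell from 12.1 and 10.6 to 5.91 and 4.16 CPM. In DM3 the replication list had a median of -0.86 and in DM1 of -2.72. Of the 26, 21 and 24 changed more upward in DM2 than in these media, against 19.8% and 23% of all genes. For mitosis the log2 fold change was higher in DM2 than in DM3 for 22 of 25. Against DM1 the log2 fold change of mitosis genes was higher for 14 and lower for 5, where 23% and 26% of all genes were. The D cyclin Ccnd2 rose from 71 and 84.8 to 503 and 481 CPM and the inhibitor Cdkn1a (p21) from 204 and 156 to 357 and 420.1 CPM, and among the 20 tested inhibitors and p53 targets 7 rose and 9 fell.

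**Figure D4:**
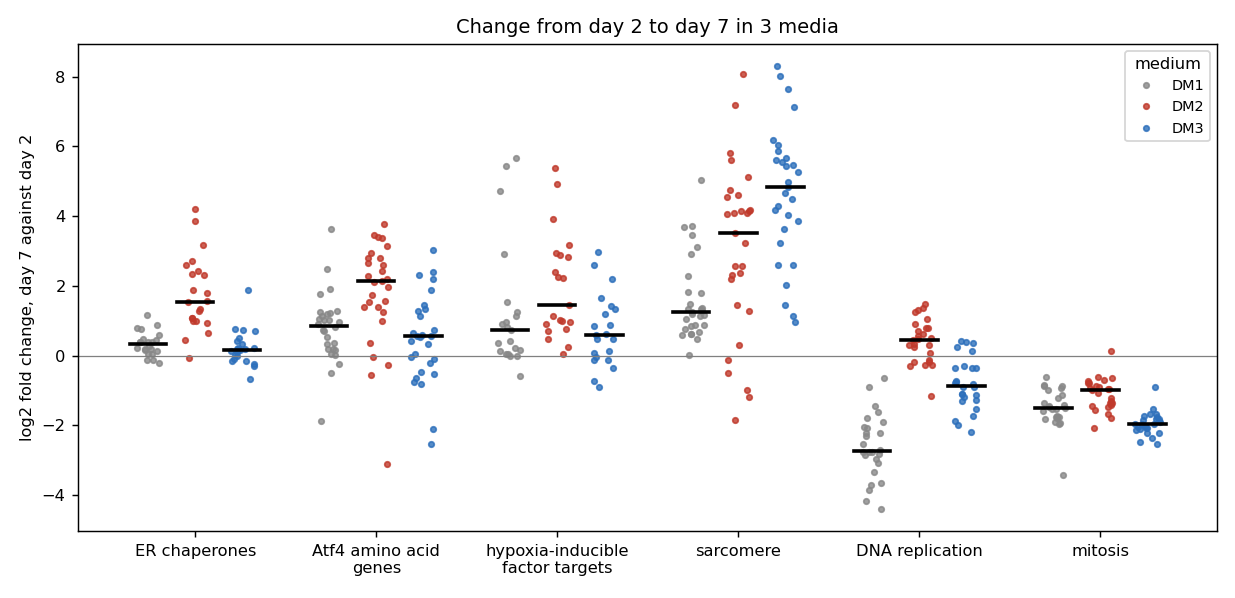
Log2 fold change from day 2 to day 7 (vertical axis) of the members of 6 lists in DM1 (grey), DM2 (red) and DM3 (blue), with medians as black bars. The medians of the 3 stress lists are highest in DM2, that of the sarcomere list is highest in DM3, and that of the replication list is above 0 only in DM2.

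Targets of the cocktail's agents went both ways, as did all genes tested, of which 25.4% rose and 29.4% fell. The cAMP list below lay near these shares. Of 17 tested adipocyte genes and PPAR-gamma targets, 7 rose and 7 fell. Pparg, the receptor of rosiglitazone, fell from 23.5 and 23.7 to 9.67 and 12.3 CPM and Cebpa, its partner in fat cells, from 24.3 and 20.7 to 7.34 and 5.49 CPM. Lipoprotein lipase Lpl and the droplet protein Plin2 rose by 0.75 and 0.76 on the log2 scale, the fatty acid carrier Fabp4 did not pass (4.69 and 3.93, then 7.38 and 6.11 CPM, with adjusted p = 0.0135 when the 4 DM2 libraries were fitted alone), and Adipoq had no count at day 2 and 9 and 4 at day 7. Of 18 glucocorticoid targets 9 rose and 6 fell: metallothionein Mt2 went from 523 and 443 to 1959 and 2016 CPM, while Tsc22d3 (GILZ) fell from 595 and 560.0 to 232 and 271 CPM and Fkbp5 by 0.44 on the log2 scale. Of 21 cAMP targets and phosphodiesterases 6 rose and 6 fell, among them Ppargc1a, a coactivator of mitochondrial genes, from 2.28 and 3.13 to 25.8 and 23.3 CPM, and Pde4a, which fell by 1.43. Of 22 insulin and IGF genes 11 rose and 5 fell. With library totals as scaling the counts higher and lower became 5 and 8 for the adipocyte list, 9 and 9 for the glucocorticoid list, 4 and 11 for the cAMP list and 9 and 10 for the insulin list.

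Cholesterol synthesis and uptake fell in 16 of 27 cases and rose in 4, with a median of -0.52 (2 higher and 21 lower with library totals). Hmgcs1, an early enzyme of the pathway, went from 198 and 205 to 60.9 and 50.9 CPM, while the exporter Abca1 rose from 4.37 and 6.64 to 38.6 and 31.1 CPM. Sqle, a later step of synthesis, rose by 0.41 on the log2 scale, a call lost with library totals (0.15, adjusted p = 0.0856) and with the replicate block in the 4 DM2 libraries (adjusted p = 0.056). Fatty acid synthesis fell in 9 of 16 cases and rose in 3 (0 higher and 10 lower with library totals). Fatty acid oxidation fell in 9 of 20 and rose in 5 (4 higher and 13 lower with library totals), with Acadm from 309 and 272 to 78.8 and 81.5 CPM and the thioesterase Acot2 from 3.05 and 3.02 to 63.2 and 63.1 CPM. Nuclear genes of the respiratory chain were higher in 2 of 25 cases and lower in 5, with a median of -0.08, and 0 were higher and 16 lower with library totals as scaling. In 18 of 25 the change was lower than in DM3, against 20% of all genes.

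Collagens and their modifying enzymes fell in 13 of 24 cases and rose in 5. Col1a2 went from 913 and 953 to 267 and 261 CPM and Col4a1, of basement membranes, from 396 and 462 to 193 and 196 CPM, while Col3a1 was at 1110.4 and 1207 CPM at day 2 and 1229 and 1115 CPM at day 7 and did not pass (adjusted p = 0.913). Of the other matrix genes 8 of 22 rose and 8 fell (7 higher and 11 lower with library totals). The proteoglycan Dcn rose from 0.721 and 0.725 to 22.5 and 22.6 CPM and tenascin Tnc fell from 130.1 and 171 to 29.2 and 33.1 CPM. Of 22 Nrf2 and glutathione genes 12 rose and 3 fell, but 8 higher and 8 lower with library totals as scaling, where the median went from 0.40 to 0.14. They were led by heme oxygenase Hmox1 at 30.2 and 26 CPM at day 2 and 208 and 241 CPM at day 7 (log2 fold change 3.0 ± 0.13 (SE), adjusted p = 6.98e-09), and Nfe2l2, which encodes Nrf2, rose from 180.2 and 178 to 495 and 494 CPM. Nqo1, a widely used Nrf2 target, did not pass (-0.62, adjusted p = 0.0936), but did as lower when the 4 DM2 libraries were fitted alone (adjusted p = 0.00097). Of 21 atrophy and autophagy genes 13 rose and 4 fell (10 higher and 6 lower with library totals): the autophagy receptor Sqstm1 (p62) rose from 592 and 510.3 to 1764 and 1949.5 CPM, cathepsin L (Ctsl) from 583 and 512 to 1750.4 and 1678 CPM and Lamp1 by 1.41, while Tfeb, the factor of lysosomal genes, fell from 7.89 and 6.18 to 2.48 and 2.76 CPM.

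Whether the time course itself depended on the medium was tested for every gene. The change from day 2 to day 7 in DM2 differed from that in DM3, which has the same cocktail, for 6362 genes (39.8%). With only the groups compared in the fit this count was 5332. The second DM3 day 2 library stood apart from its partner. The median difference from DM3 was -0.09 over all genes, -0.155 without the first and -0.028 without the second DM3 day 2 library. From that in DM1 the change differed for 7830 genes (49%), 3678 upward and 4152 downward, or 2702 and 5410 with library totals as scaling. Of the 4063 genes that rose in DM2, 50.5% rose more than in DM3 and 68.5% more than in DM1. Of all genes 19.8% and 23% were higher in these tests. Of the 4691 that fell, 46.8% fell more than in DM3 and 71.1% more than in DM1, against 20% and 26% lower of all genes. Both sets were picked by the DM2 change, which is part of each difference, so larger shares were favoured in advance. Of the 4063, 1797 also rose in DM3, and of the 4691, 2191 also fell there. F5, a coagulation factor, rose in DM2 from 0.481 and 0.916 to 24.1 and 19.8 CPM and had log2 fold changes of -2.57 in DM3 and -2.21 in DM1. Stc1, a secreted stanniocalcin, and Slc24a3, a sodium-calcium exchanger, rose by 5.61 and 5.50 in DM2, with -1.39 and -1.45 in DM3. In the other direction, the interleukin receptor Il2rb fell from 8.13 and 7.37 to 0.226 and 0.35 CPM, with 0.63 in DM3. The matrix protein Postn fell by 2.96 in DM2 and had a log2 fold change of 4.88 in DM1.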

How the data were processed

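The deposited table holds expected counts per gene, which the authors made with STAR 2.5.1b and RSEM 1.2.31 on GRCm38.p5, per the submitters' processing notes. Here these values were rounded to integers, genes were filtered with filterByExpr by group (15973 of 49671 kept), and all 14 libraries were fitted in 1 model of 7 groups with edgeR 4.0.16 (R 4.3.3), TMM scaling and the robust quasi-likelihood F test, with Benjamini-Hochberg adjustment over all genes tested. SEs were derived from the log2 fold change and F. A group with no count was set to 3 counts per library. Differences between media were tested as interaction contrasts. The members and gene lists (742 symbols in 39 lists, 741 in the table) were chosen with earlier results of these data known. Named genes were Txnip, Nos2 and Hspa5, list members, the 15 largest rises and falls among called protein-coding genes of at least 10 CPM whose libraries did not overlap, the 15 largest gains and losses of CPM, and the 10 largest differences each way per interaction. Promoter sequences came from RefSeq (GRCm38.p6) and gene coordinates from Gencode vM21 on GRCm38, both matched by symbol or identifier. The fit was tested on simulated counts for this comparison with 200 changed genes. This test was revised: its first form required that over 90% of genes changed 4-fold up or down be called, which failed in both simulations tried, and the requirement was dropped, so that only unbiased folds and few false calls are now required. In the simulation kept, 68 of 80 such genes were called, with 26 of 27 and 26 of 26 of those at 10 CPM or more but 5 of 13 and 11 of 14 of those at 1 to 10 CPM, for falls and rises, and 9 of 136 calls (6.62%) were of unchanged genes. Smaller changes were called less often: 24 of 40 at 0.5-fold, 29 of 40 at 2-fold and 6 of 40 at 1.5-fold. At 10 CPM or more, 6 of 28 changed by 1.5-fold were called. In the class of highest dispersion, the spread between libraries of a group, 3 of 10 at 0.25-fold and 4 of 6 at 4-fold were called. A gene that did not pass may thus have been missed where its counts were few, its change small or its spread wide. Other scalings, filters, DESeq2 1.42.0, a replicate block and leaving out each library were tried.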

Additional observations from a re-analysis of the deposited data

Results flagged for a closer look

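The genes given here were picked from those named above. For each of them the change from day 2 to day 7 differed between media by the test of the difference itself. That test did not single them out, since it passed for 6362 genes (39.8%) against DM3 and 7830 (49%) against DM1. Against DM3 the differences in log2 fold change (DM2 minus DM3) were -8.85 for Txnip, -5.37 for Il2rb and -2.63 for Myod1, which were lower in DM2. They were 7.53 for F5, 7.0 for Stc1, 6.95 for Slc24a3, 6.61 for Avil, 4.54 for Ndrg1 and 2.28 for Hspa5, which were higher. Against DM1 they were -10.66 for Txnip, -7.85 for Postn, 7.17 for F5, 5.88 for Cdc6, 4.12 for Ndrg1 and 2.13 for Hspa5.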

How the results depend on the processing

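No gene was called in opposite directions in DM2 under any of the 16 other settings. With library totals as scaling 2665 genes were higher at day 7 in DM2, against 4063, and Qars, which did not pass, was called lower (-0.18). Without single libraries 7179 to 7890 genes were called in DM2, against 8754. In DM1, 3631 to 4191 were called and 1690 to 2007 were higher, against 5482 and 2691. Replicate numbers were not taken to pair the samples: deviations of the first replicates correlated at -0.3 between day 7 and day 2 of DM2 and at -0.781 to 0.736 over all pairs of groups. A replicate block in all libraries gave 8697 calls, and 3 alternatives chosen after seeing the data gave 7883 (the block in the 4 DM2 libraries alone), 10087 (there, with crossed numbers) and 9583 (with the 3 libraries poor in processed pseudogenes left out). The causes were not tested. Floors of 3 counts came to 0.113 to 0.12 CPM in the DM2 libraries, and intervals and floors cover counting error only.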
